A study of Mus musculus with 20 samples.

Results

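The Nlrp genes Nlrp4e, Nlrp4f, Nlrp9c and Nlrp14, a group of 4 that mouse oocytes express, were followed from the oocyte to the blastocyst. Members were taken as every probe set that the platform's gene annotation assigns to these genes. They are 4 of the 9607 genes named singly on the array, and have 5 of its 22511 probe sets other than controls, with 2 for Nlrp9c and 1 for each of the other genes. The measurements came from 20 Affymetrix MOE430B arrays of Mus musculus, 4 for each of 5 stages: oocyte, 1-cell embryo, 2-cell embryo, 8-cell embryo and blastocyst. Per the labels, the total RNA on every array had been amplified in 2 rounds of in vitro transcription. The labels give no strain, no age, no number of oocytes or embryos per sample and no statement on oocyte maturation or on how embryos were obtained.

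Nlrp proteins belong to the NLR family, whose members carry a nucleotide-binding NACHT domain and leucine-rich repeats, and in this subfamily usually an N-terminal pyrin domain. Some, such as Nlrp3, assemble inflammasomes in immune cells, whereas a group of mouse genes around Nlrp5 (Mater) is expressed mainly in oocytes. Oocyte transcripts are stored, used during the first cleavages and then degraded as the embryonic genome becomes active. Nlrp4f encodes a component of the subcortical maternal complex, a protein assembly under the surface of the egg. Knockdown of Nlrp4e has been reported to arrest early mouse embryos. Loss of Nlrp14 has been reported to make female mice infertile. Nlrp9c is one of the mouse Nlrp9 paralogs.

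RefSeq promoter windows were available for 3 of the 4 genes, Nlrp4e, Nlrp4f and Nlrp9c, and that of Nlrp9a, a paralog close to Nlrp9c on chromosome 7, is shown beside them. They are shown because all these genes fell at the 8-cell stage, and the letters before their starts can be set side by side. Each sequence is the 250 bases before the annotated start in GRCm38.p6, at chr7:23300942-23301191 (plus strand) for Nlrp4e, chr13:65205717-65205966 (minus strand) for Nlrp4f, chr7:26403701-26403950 (minus strand) for Nlrp9c and chr7:26534773-26535022 (plus strand) for Nlrp9a. Sequences run 5′ to 3′, and capitals mark the E-box CANNTG and the NF-Y-type box CCAAT, which reads ATTGG on the opposite strand.
Nlrp4e: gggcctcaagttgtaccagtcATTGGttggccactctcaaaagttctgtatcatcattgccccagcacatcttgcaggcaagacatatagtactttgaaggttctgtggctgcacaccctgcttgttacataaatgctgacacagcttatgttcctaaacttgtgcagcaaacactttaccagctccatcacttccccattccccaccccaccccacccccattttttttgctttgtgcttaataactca
Nlrp4f: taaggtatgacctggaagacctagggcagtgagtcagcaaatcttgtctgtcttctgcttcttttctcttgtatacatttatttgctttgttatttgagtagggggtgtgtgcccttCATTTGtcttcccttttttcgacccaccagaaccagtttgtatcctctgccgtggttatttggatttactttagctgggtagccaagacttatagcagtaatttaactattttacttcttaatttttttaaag
Nlrp9c: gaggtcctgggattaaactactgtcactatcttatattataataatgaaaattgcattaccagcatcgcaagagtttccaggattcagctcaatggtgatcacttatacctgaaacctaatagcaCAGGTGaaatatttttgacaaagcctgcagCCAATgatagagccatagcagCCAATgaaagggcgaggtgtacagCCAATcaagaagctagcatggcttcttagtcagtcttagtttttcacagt
Nlrp9a: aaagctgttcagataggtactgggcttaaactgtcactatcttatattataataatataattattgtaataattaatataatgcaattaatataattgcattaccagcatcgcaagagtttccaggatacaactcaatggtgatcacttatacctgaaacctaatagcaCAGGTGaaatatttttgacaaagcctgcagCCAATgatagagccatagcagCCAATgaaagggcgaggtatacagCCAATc
The Nlrp9c and Nlrp9a windows were near copies, with 195 identical bases of 203 aligned (96.1%). The windows of Nlrp4e, Nlrp4f and Nlrp9c had 57.3% to 61.1% identical bases of those aligned in pairs. Apart from Nlrp9c with Nlrp9a, pairs that included Nlrp9a, Nlrp9b, Nlrp4a or Nlrp4b gave 55.5% to 67.2%. Unrelated windows were not aligned, so these shares do not show a likeness among the members. The Nlrp9c window held 3 copies of CCAAT, starting at positions -95, -74 and -50 from the start, and 1 E-box at -125. Nlrp4f had 1 E-box at -133 and no CCAAT, and Nlrp4e had 1 CCAAT at -229, on the opposite strand, and no E-box. Searched on both strands of all 32851 windows of this length, 1 or more E-boxes were found in 66.2%, 1 or more CCAAT in 33.8% and 3 or more CCAAT in 2.79%. The TATA box TATAAA, found in 12.4% of windows, and the homeobox motif TAATTG or TAATTA, found in 11.3%, were in none of the 3 members' windows, and Nlrp9a held 4 homeobox motifs. CCAAT was added to the search after the sequences had been seen, no marked matches overlap, and a match or its absence describes these letters only.

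**Figure D1:**
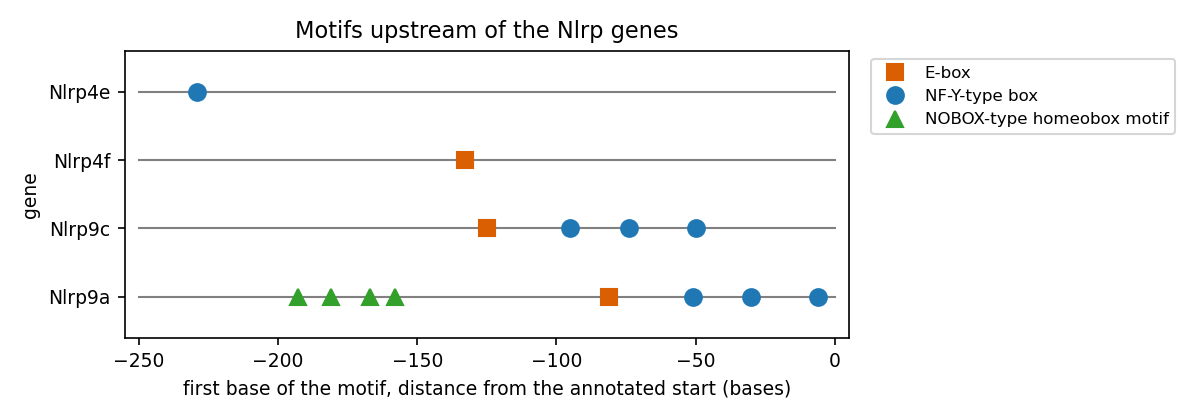
Positions of motif matches in the 250 bases before the annotated start of Nlrp4e, Nlrp4f, Nlrp9c and Nlrp9a, with the distance of the first base of each match from the start on the x axis and 1 line per gene. Nlrp9c and Nlrp9a carry the same order of 1 E-box and 3 NF-Y-type boxes, displaced against each other, and Nlrp9a has 4 homeobox motifs farther upstream.

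Intensities are linear values as the authors deposited them, 1 per probe set and array, on arrays that had been scaled to a common mean. Probe sets bind with different strength, so levels are compared between stages of a probe set and not between genes. As every array was scaled to the same mean, a fall is a fall in the share of an array's signal. Less transcript per embryo and more of all other RNA cannot be told apart. The table gives no detection calls. Its median of 82.6 serves as a mark for low values, and lower intensities were not separated from background. Log2 changes are differences of stage means of log2(intensity + 20), which understate the change where values are low. Adjusted p-values are from limma over all 15234 tested probe sets, and a value under 0.05 was called. Precision is limited by the number of arrays, 4 per stage. The labels do not say that the 4 arrays of a stage came from separate collections, so a p-value weighs a change only against the spread among these arrays, which may be technical.

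The labelled stages were checked with markers. Of 11 listed oocyte markers 4 are on the array (Bmp15, Oosp3, Wee2 and Zar1), and their summed intensity was 45057 to 55745 on oocyte arrays and 559.6 to 811.7 on blastocyst arrays. Of 16 blastocyst markers 4 are on it (Epcam, Gata6, Klf17 and Pdgfra), and 3 of them were called higher and 1, Klf17, lower in blastocysts against oocytes. Klf17 averaged 94.1 ± 38.9 units in blastocysts, against 4930 ± 704 in oocytes (SD, n = 4 each). With Klf17 included, the sum of these markers was not higher in blastocysts. It was 4790 to 6222 on oocyte arrays and 2753 to 4437 on blastocyst arrays. Of 16 cumulus and granulosa markers 5 are on the array (Amhr2, Cyp11a1, Foxl2, Inhba and Ptx3), with sums of 1093 to 1333 on oocyte arrays, 899.7 to 1315 at the 1-cell, 2598 to 3232 at the 2-cell and 1400 to 1994 at the 8-cell stage, and 906.5 to 1228 in blastocysts. At the 2-cell stage against the 1-cell stage Amhr2 was called higher (2053 ± 284 units at the 2-cell stage, against 167.0 ± 37.6 at the 1-cell stage), Cyp11a1 lower (-1.05 on the log2 scale), Foxl2 (-0.35) and Inhba (0.70) were not called, and Ptx3 was not tested. Odf1, the only measured sperm marker of 8, and Ptprc, the only blood marker of 8, reached at most 227.6 units for Odf1 and 76.8 for Ptprc. For 18S ribosomal RNA the middle control probe set gave 32272 to 42929 on 1-cell arrays and 398.1 to 850.0 on oocyte arrays. The log2 ratio of 3′ to 5′ probe sets of beta-actin averaged 1.09 in blastocysts and 2.41 in oocytes, and that of Gapdh averaged 2.38 in blastocysts, 1.04 at the 8-cell stage and 2.05 in oocytes. The part of these differences in the Nlrp results was not tested.

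All 4 genes stayed at 75.7% or more of their oocyte mean at the 1-cell stage, and all 4 had fallen to between 1.17% and 5.30% of it by the 8-cell stage. In between, at the 2-cell stage, mean Nlrp4f stood at 116% of its oocyte mean, Nlrp4e at 82.7%, Nlrp9c at 57.4% on its brighter probe set and Nlrp14 at 30.6%. In direct tests at each step no difference between these genes passed after adjustment (smallest adjusted p = 0.0571, exact permutation tests). For 12 of the 24 tests the unadjusted p was 0.0286, the smallest that 4 against 4 arrays can give. The result therefore does not show that the genes changed alike. Between the 8-cell stage and the blastocyst Nlrp14 fell again, whereas the change of Nlrp4e and Nlrp4f was not called. Nlrp4e was already below the table median on all 8-cell arrays, a range not separated from background. Nlrp9c was called lower on its less bright probe set (log2 change -0.69) and not on its brighter one (-0.93).

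**Figure D2:**
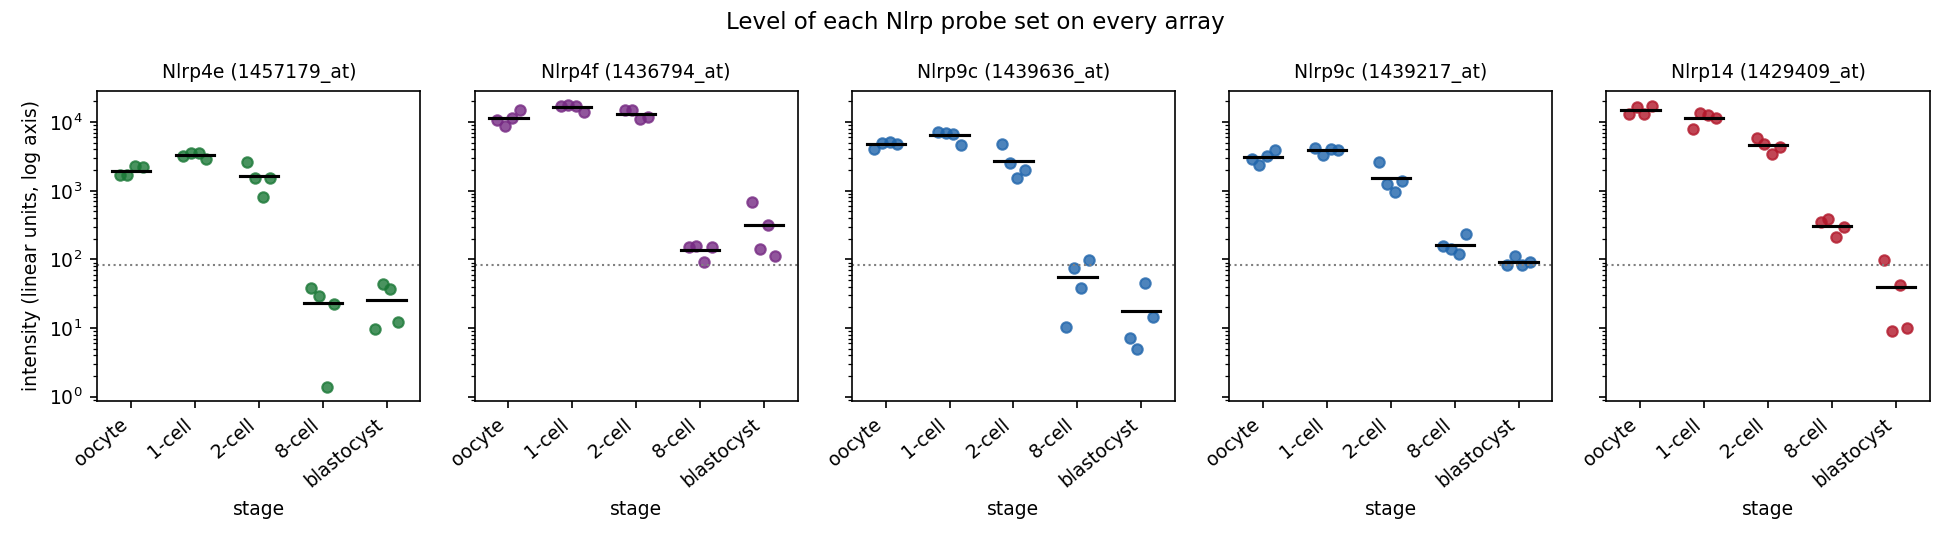
Intensity (linear units, log axis) of the 5 probe sets of Nlrp4e, Nlrp4f, Nlrp9c and Nlrp14 on each of 20 arrays by stage, with a point per array, a bar at the stage mean (n = 4) and a dotted line at the table median of 82.6. On every panel all 8-cell and blastocyst points lie below all points of the 3 earlier stages.

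Nlrp4e (probe set 1457179_at) read 1706, 1678, 2279 and 2185 units on the 4 oocyte arrays. It read 3157, 3605, 3514 and 2884 at the 1-cell stage, and 2590, 1545, 803.7 and 1554 at the 2-cell stage. Values at the 8-cell stage were 38.7, 29.1, 1.4 and 22.4, and in blastocysts 9.8, 44.2, 37.1 and 12.3. All 1-cell arrays were higher than all oocyte arrays, yet the change of 0.75 (SE 0.31) was not called over all probe sets (limma, adjusted p = 0.183). Nlrp4e fell to a mean of 1623 ± 734 at the 2-cell stage, against 3290 ± 333 at the 1-cell stage (SD, n = 4 each), a log2 change of -1.12 (SE 0.31, adjusted p = 0.00971). Without 2-cell replicate 3, the lowest array of that stage, this was -0.83 with an adjusted p of 0.0603. The 2-cell arrays overlapped with the oocyte arrays, at a log2 change of -0.37 (adjusted p = 0.466). The next step took all 4 arrays below the table median: the log2 change at the 8-cell stage against the 2-cell stage was -5.24 (SE 0.31, adjusted p = 2.65e-12). Its size ran from -6.05 with a pseudocount of 5 to -3.96 with one of 80. In blastocysts all arrays were also below that median, and they overlapped with the 8-cell arrays. In order of the mean the stages ran 1-cell, oocyte, 2-cell, blastocyst and 8-cell. The 1-cell stage and the oocyte, the 2-cell stage and the oocyte, and the blastocyst and the 8-cell stage were not called different, and the blastocyst against the 2-cell stage was not fitted.

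Nlrp4f (1436794_at) was first called lower at the 8-cell stage. Oocyte arrays read 10840, 8883, 11600 and 14820 units, 1-cell arrays 17229, 17983, 17203 and 14008, and 2-cell arrays 15242, 15258, 11154 and 11677. The 8-cell arrays read 152.8, 154.4, 92.4 and 152.7, and the blastocyst arrays 676.3, 141.8, 319.0 and 110.8. The ranges of the first 3 stages overlapped, and none of their differences was called: 0.54 (SE 0.33, adjusted p = 0.436) at the 1-cell stage against the oocyte, and 0.22 (adjusted p = 0.718) at the 2-cell stage against the oocyte. The 2-cell stage against the 1-cell stage gave -0.32 (adjusted p = 0.562), and the sign of this value turned with quantile normalization. The fall came in a single step. At the 8-cell stage the mean was 138.1 ± 30.5, against 13333 ± 2224 at the 2-cell stage (SD, n = 4 each), a log2 change of -6.41 (SE 0.33, adjusted p = 2.21e-13). Its arrays remained above the table median at both late stages, on 4 of 4 arrays each. Blastocyst values spread from 110.8 to 676.3 around those of the 8-cell stage (log2 change 0.77, SE 0.33, adjusted p = 0.130). Without blastocyst replicate 1, the highest array, the change was 0.31 (adjusted p = 0.517), and without blastocyst replicate 4, the lowest, it was 1.11 (adjusted p = 0.0175). In order of the mean the stages ran 1-cell, 2-cell, oocyte, blastocyst and 8-cell, and of the neighbours only the oocyte and the blastocyst were called different, at -5.42 for the blastocyst against the oocyte (adjusted p = 1.64e-12).

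Nlrp9c has 2 probe sets. The brighter one, 1439636_at, read 4085, 4881, 5217 and 4812 units on the oocyte arrays, 7290, 6936, 6673 and 4662 at the 1-cell stage, and 4815, 2575, 1539 and 1978 at the 2-cell stage. It read 10.4, 75.4, 37.9 and 99.7 at the 8-cell stage and 7.1, 4.9, 44.9 and 14.4 in blastocysts, with both late stages far below the earlier ones on every array. The second probe set read higher at the late stages, at values that in blastocysts lay close to the table median and were not separated from background. This one, 1439217_at, read 2875, 2342, 3209 and 3924 in oocytes, 4201, 3355, 4105 and 3859 at the 1-cell and 2589, 1259, 953.2 and 1383 at the 2-cell stage. Its late values were 157.2, 142.9, 121.9 and 232.9 at the 8-cell stage and 81.6, 112.0, 82.3 and 91.8 in blastocysts. Both put the start of the fall at the 2-cell stage. Against the 1-cell stage the log2 change was -1.34 (adjusted p = 0.00699) for 1439636_at, whose 2-cell replicate 1 overlapped with the lowest 1-cell array, and -1.41 (SE 0.23, adjusted p = 5.17e-05) for 1439217_at, whose arrays did not overlap. Both fell again at the 8-cell stage against the 2-cell stage, with log2 changes of -5.22 (SE 0.35, adjusted p = 2.81e-11) for 1439636_at and -3.03 (adjusted p = 2.59e-10) for 1439217_at. For 1439636_at the size ran from -5.68 with a pseudocount of 5 to -4.29 with one of 80.

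The probe sets of Nlrp9c differed in what was called at the edges. The 2-cell stage against the oocyte was called for 1439217_at (-1.06, adjusted p = 0.00125) and missed the threshold for 1439636_at (-0.93, adjusted p = 0.0668). Without 2-cell replicate 1, the highest array of its stage, the value of 1439636_at was -1.24 with an adjusted p of 0.0118. The blastocyst against the 8-cell stage was called for 1439217_at (-0.69, adjusted p = 0.0475, all 4 arrays lower) and not for 1439636_at (-0.93, adjusted p = 0.0839). Leaving out 8-cell replicate 1 gave -1.31 (adjusted p = 0.00838) and leaving out blastocyst replicate 3 gave -1.23 (adjusted p = 0.0216) for 1439636_at. Blastocyst means were 0.375% of the oocyte mean for 1439636_at and 2.98% for 1439217_at. On 1439636_at, 1 of 4 8-cell arrays and 0 of 4 blastocyst arrays were at or above the table median. Its late differences thus lie mostly in a range not separated from background. The letters of the probes were not analysed here, so how far either probe set also binds transcripts of Nlrp9a or Nlrp9b is not known. In order of the mean both ran 1-cell, oocyte, 2-cell, 8-cell and blastocyst, and the 1-cell stage was not called different from the oocyte for either.

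Nlrp14 (1429409_at) was the one member with its highest mean in the oocyte and fell at each of the 3 steps that follow the 1-cell stage. Its arrays read 12917, 16674, 13341 and 17039 units in oocytes, 7835, 13523, 12567 and 11463 at the 1-cell stage, and 5806, 4749, 3441 and 4359 at the 2-cell stage. They read 346.6, 386.3, 214.4 and 295.2 at the 8-cell stage and 97.7, 9.1, 42.7 and 10.1 in blastocysts. From the 2-cell stage on, no array of a stage reached the lowest array of the stage before it. The 1-cell arrays overlapped with the oocyte arrays (log2 change -0.42, SE 0.31, adjusted p = 0.558). The mean was 4589 ± 980 at the 2-cell stage, against 11347 ± 2488 at the 1-cell stage (SD, n = 4 each), a log2 change of -1.30 (adjusted p = 0.00303). The log2 change was -3.81 at the 8-cell stage against the 2-cell stage (adjusted p = 7.36e-10) and -2.68 in blastocysts against the 8-cell stage (adjusted p = 7.16e-07). The size of the last value depends on the pseudocount, at -3.27 with 5 and -1.74 with 80, since the blastocyst values are low. All 4 8-cell arrays and 1 of 4 blastocyst arrays were at or above the table median, so the last step ended near the low range of the table. Blastocysts against oocytes gave -8.21 (adjusted p = 2.87e-16). In order of the mean the stages ran as in development, and each neighbouring pair was called different except the 1-cell stage and the oocyte.

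**Figure D3:**
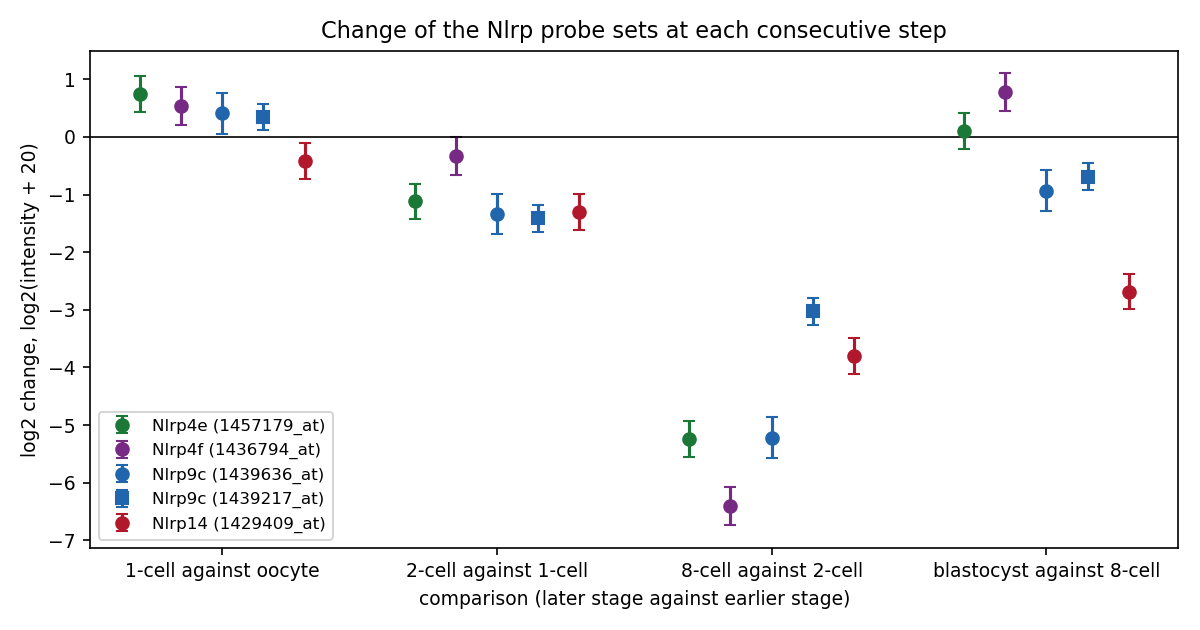
Log2 change, on the log2(intensity + 20) scale, of each of the 5 probe sets at the 4 consecutive steps, later stage against earlier stage, with bars of 1 SE from the limma fit. All 5 points lie between -3.03 and -6.41 at the 8-cell stage against the 2-cell stage, Nlrp4f lies near 0 at the 2-cell stage (-0.32, a sign that turns with quantile normalization), and Nlrp14 is lowest at the blastocyst (-2.68).

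Counted over the 5 probe sets, none was called at the 1-cell stage against the oocyte, where 6.93% of all tested probe sets were called by limma, 2.67% as higher and 4.26% as lower. At an unadjusted p under 0.05 in the same limma fit there was 1, Nlrp4e. The share of all tested probe sets at that unadjusted threshold is not given here, so this 1 of 5 cannot be weighed against it. At the 2-cell stage against the 1-cell stage 4 of 5 fell, with a background of 9.34% called lower, and the exception was Nlrp4f. With quantile normalization the changes at this step were smaller and missed the threshold for Nlrp4e (-0.76, adjusted p = 0.0593), for Nlrp9c on 1439636_at (-0.89, adjusted p = 0.0650) and for Nlrp14 (-0.85, adjusted p = 0.0551). At the 8-cell stage against the 2-cell stage 5 of 5 fell, with 13.4% of all tested probe sets called lower. In blastocysts against the 8-cell stage 2 of 5 fell, Nlrp14 and 1 probe set of Nlrp9c, with a background of 6.58%. Over the whole interval, blastocysts against oocytes, 5 of 5 fell, with 16.1% called lower. At the 2-cell stage against the oocyte 2 of 5 fell, Nlrp14 (-1.72, adjusted p = 0.000169) and 1 probe set of Nlrp9c, with 9.68% called lower. The median log2 change of all tested probe sets lay between -0.07 and 0.12 in these comparisons.

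Whether the genes changed by different amounts in a step was asked directly with 2-sided exact permutation tests of the difference between both log2 values on each array, for 6 pairs and 4 steps, 24 tests in all. In 12 of them the arrays of the stages did not overlap and p was 0.0286, the smallest that 4 against 4 arrays can give. Adjusted over the 24 tests this became 0.0571, so none passed 0.05. The sizes are therefore given with their errors only. Nlrp4e, Nlrp4f and Nlrp9c had log2 changes that lay 1.17 (SE 0.22), 0.96 (SE 0.26) and 0.83 (SE 0.27) above that of Nlrp14 at the 1-cell stage against the oocyte. At the 2-cell stage against the 1-cell stage the value of Nlrp4f lay above that of Nlrp9c by 1.01 (SE 0.27), above that of Nlrp14 by 0.97 (SE 0.21), and Nlrp4e lay at -0.80 (SE 0.26) from Nlrp4f. At the 8-cell stage Nlrp4f lay at -2.60 (SE 0.11), Nlrp4e at -1.43 (SE 0.25) and Nlrp9c at -1.42 (SE 0.51) from Nlrp14. Nlrp4e lay 1.17 (SE 0.31) above Nlrp4f at this step. At the blastocyst the difference of Nlrp4f from Nlrp14 was 3.46 (SE 0.12) and that of Nlrp4e from Nlrp14 was 2.79 (SE 0.67).

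The other oocyte-type Nlrp genes on the array were Nlrp4a and Nlrp4b, paralogs of Nlrp4e and Nlrp4f, and Nlrp9a and Nlrp9b, paralogs of Nlrp9c. All 4 fell at the 2-cell stage against the 1-cell stage, with log2 changes between -1.88 and -3.63, where 9.34% of all tested probe sets were called lower. They fell again at the 8-cell stage against the 2-cell stage, between -2.27 and -4.88, where 13.4% were called lower. Relative to its own oocyte mean Nlrp4b had the lowest 2-cell mean of these probe sets, at 682.9 ± 210 units, against 10032 ± 933 in oocytes (SD, n = 4 each), or 6.81% of its oocyte mean. Nlrp4a was at 3166 ± 1352 at the 2-cell stage, against 9838 ± 1525 in oocytes. At this stage all 4 paralogs were called lower than in oocytes, as were 9.68% of all tested probe sets, with log2 changes from -1.70 for Nlrp4a to -3.88 for Nlrp4b, side by side with 0.22 for Nlrp4f and -0.37 for Nlrp4e, which were not called. In blastocysts against the 8-cell stage Nlrp4a (-1.17, adjusted p = 0.00141) and Nlrp4b (-0.82, adjusted p = 0.0480) were called lower, as were 6.58% of all tested probe sets. Nlrp4b was below the table median on all arrays of both stages, which overlapped. Nlrp4a was below it on all blastocyst arrays. These values were not separated from background. How far the probe sets of Nlrp4e and Nlrp4f and those of these paralogs bind each other's transcripts was not analysed here.

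**Figure D4:**
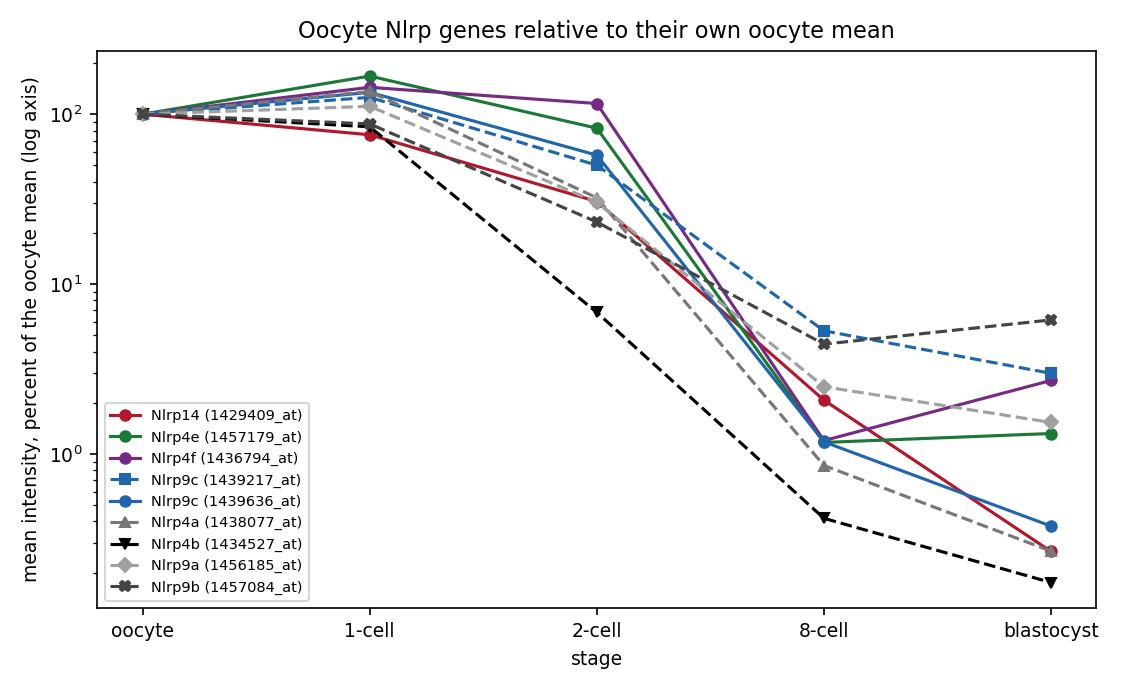
Mean intensity by stage as a percentage of the same probe set's oocyte mean (log axis, n = 4 arrays per point) for 9 probe sets of the oocyte-type Nlrp genes. At the 2-cell stage Nlrp4f (116%) and Nlrp4e (82.7%) are the highest points and Nlrp4b (6.81%) the lowest.

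The wider NLR family was thinly covered. Of 28 other NLR genes listed, 10 are on the array and 8 were tested, namely these 4 paralogs and Nlrc3, Nlrc5, Nlrp12 and Nod1. Of the last 4 only Nod1, a sensor of bacterial peptidoglycan, was called at any step. It rose at the 2-cell stage against the 1-cell stage (log2 change 1.26, adjusted p = 0.0417), where 12.2% of all tested probe sets were called higher, with overlapping arrays. It was also higher in blastocysts than in oocytes (1.22, adjusted p = 0.0320), where 21.6% were called higher. Of 13 inflammasome genes listed, 2 are on the array, and 1 was tested. This was Pycard, the adaptor that links Nlrp sensors to an inflammatory caspase, which averaged 201.8 ± 61.3 units in blastocysts and 196.4 ± 35.7 in oocytes (SD, n = 4 each) and was called at no step.

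Of 19 genes listed for the subcortical maternal complex and its partners, 6 are on the array: Ooep, Khdc3 and Padi6, which encode proteins of the complex or of the same egg lattices, and Dnmt1, Trim28 and Cdc42. Of these, 4 fell and none rose at the 2-cell stage against the oocyte, where 9.68% of all tested probe sets were called lower and 11.9% higher. Ooep averaged 2469 ± 981 units at the 2-cell stage, against 21624 ± 2466 in oocytes. Padi6 averaged 1920 ± 277 at the 2-cell stage, against 18815 ± 1532 in oocytes, and Khdc3 396.0 ± 196 at the 2-cell stage, against 2305 ± 358 in oocytes (SD, n = 4 each). Their log2 changes were -3.18, -3.29 and -2.58, and that of Nlrp4f, whose protein is in the same complex, was 0.22. The difference between Nlrp4f and these genes was not tested. In blastocysts against the 8-cell stage Ooep (2.49, adjusted p = 1.56e-08), Khdc3 (2.49, adjusted p = 3.39e-08) and Cdc42 (1.32, adjusted p = 0.000354) rose. Padi6 fell (-2.24, adjusted p = 1.57e-06), and Dnmt1 and Trim28 were not called. Of all tested probe sets 7.98% were called higher and 6.58% lower at this step. Nlrp4f was not called at that step.

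Of 84 listed oocyte and maternal-effect genes 29 were tested. At the 2-cell stage against the 1-cell stage 20 fell and 2 rose, where 9.34% of all tested probe sets were called lower and 12.2% higher, with a median log2 change of -1.52 (all tested probe sets 0.07). The called genes with the smallest p were Obox6, a homeobox gene that rose (7.04), and Pabpn1l (-5.25), a poly(A)-binding protein, Zar1 (-3.62), an oocyte RNA regulator, and Bub1b (-4.81), a spindle checkpoint kinase. At the 8-cell stage against the 2-cell stage 22 fell and 2 rose, where 13.4% were called lower and 14.1% higher, with a median of -2.49 (all tested probe sets 0.10). There the smallest p belonged to Wee2 (-6.57), an oocyte kinase that inhibits Cdk1, Oosp3 (-5.13), D6Ertd527e (-3.40) and Fbxw19 (-4.05). The value of Nlrp4f at that step, -6.41, stands beside that of Wee2, which like Nlrp4f was not called at the 2-cell stage against the 1-cell stage (0.40, adjusted p = 0.254). At the 1-cell stage against the oocyte 7 fell and 1 rose, where 4.26% of all tested probe sets were called lower and 2.67% higher, with a median of -0.19. The smallest p belonged to Fbxw13 (-3.45), Khdc3, Fbxw21 (-1.65) and Pabpn1l (-1.48), at a step where no Nlrp member was called.

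Genes with the most similar course were ranked by Pearson's r of log2(intensity + 20) over the 20 arrays, among 8732 other probe sets. The points share arrays and the 5 stages, so the values describe and carry no p. Nlrp4e was most like Trim61 (r = 0.992), Obox5 (0.988), Slc6a7 (0.988), Tmcc3 (0.988) and C2cd5 (0.988). Nlrp4f was most like Tent4a (0.984), Fsd1 (0.980), Klhl8 (0.980), Ninj1 (0.980) and Bmp5 (0.979). Nlrp9c was most like Oosp3 (0.991), Arhgap20os (0.989), Pla2g4c (0.988), Bmp15 (0.987) and Tafa2 (0.987), of which Bmp15 is the oocyte's own growth factor. Nlrp14 was most like Fbxw24 (0.989), Mtus1 (0.979), Mfsd2a (0.976), Accsl (0.976) and Fbxw21 (0.972). The members themselves correlated at 0.918 (Nlrp14 with Nlrp4f) to 0.979 (Nlrp4e with Nlrp9c) between genes, and at 0.984 between both probe sets of Nlrp9c.

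The 2-cell arrays of these genes ran in a shared order. For Nlrp4e the SD was 45.2% of the mean at the 2-cell stage, against 10.1% at the 1-cell stage, whereas for Nlrp14 it was 21.3% at the 2-cell stage, against 21.9% at the 1-cell stage. Replicate 3 was the lowest of the 4 for all 9 oocyte-type Nlrp probe sets, and replicate 1 the highest for 7 of them. The exceptions were Nlrp4f, whose replicates 1 and 2 were nearly equal, and Nlrp9b. Among all 2037 probe sets that were called lower at the 8-cell stage against the 2-cell stage, replicate 3 was lowest for 40.5% and replicate 1 highest for 50.8%. On the first principal component over all tested probe sets, replicate 1 (-29.7) lay nearest to the oocyte and 1-cell arrays (-83.7 to -67.7) and replicate 3 (-0.95) nearest to the 8-cell and blastocyst arrays (74.8 to 84.7). The part of this order in the 2-cell comparisons was not tested beyond leaving out each array.

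**Figure D5:**
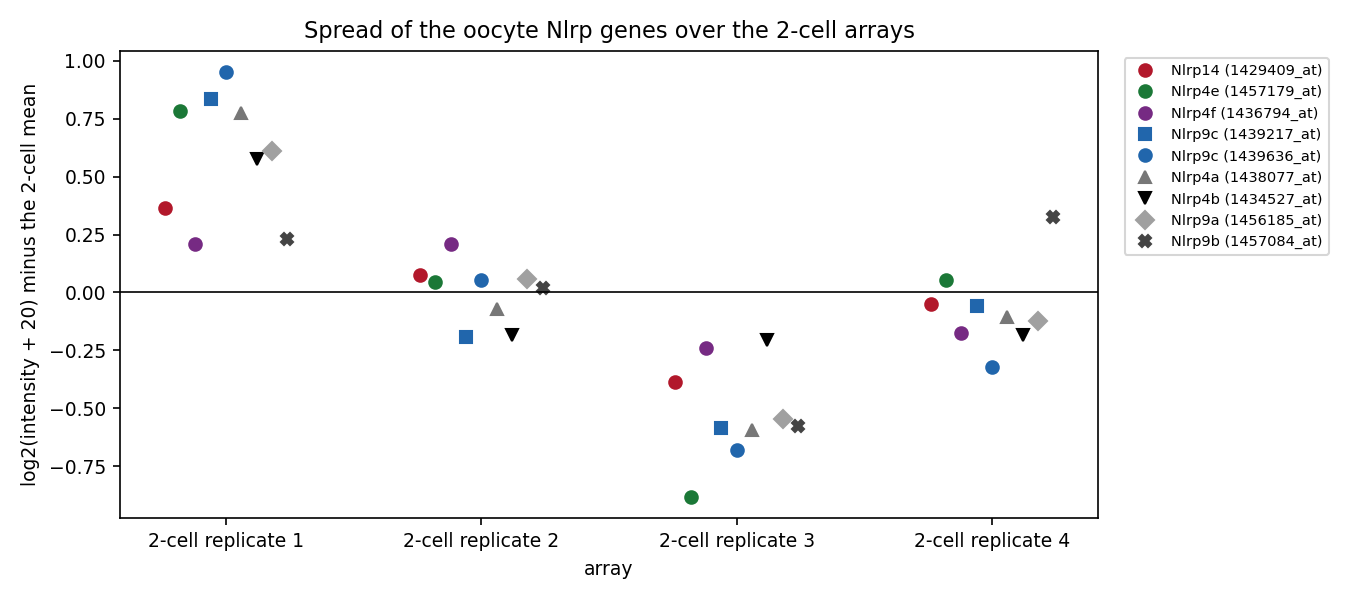
Log2(intensity + 20) minus the 2-cell stage mean of the same probe set, for 9 probe sets of the oocyte-type Nlrp genes on the 4 arrays of the 2-cell stage, with a point per probe set. All 9 points of replicate 1 lie above 0 and all 9 of replicate 3 below it.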

How the data were processed

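The authors deposited 1 linear intensity per probe set for each of 20 arrays. From the values, each array had been scaled to the same trimmed mean; the labels used here do not say how scans were read and probes summarized. Stages and replicate numbers come from the sample titles. Genes come from the platform's annotation, and their names were updated to the current RefSeq symbol of the same gene identifier where there was one. Of 22511 probe sets other than controls, 15234 reached the median of the table, 82.6, on 4 or more arrays. They were fitted in log2(intensity + 20) with limma 3.58.1 under R 4.3.3, all stages together, with an intensity trend and Benjamini-Hochberg adjustment within each comparison. The fit was tested on simulated data. The members, lists and comparisons were chosen with earlier results of these data known. Named were all probe sets of the members, the tested genes of the NLR, inflammasome and subcortical lists, the 4 called oocyte genes with the smallest p, and the 5 genes most correlated with each member. A gene with several probe sets was represented by the one of highest mean, without those named _x_at where it had another. The marker sums took the highest mean of all its probe sets. Amhr2, Epcam, Dnmt1, Trim28 and Odf1 were fitted on _x_at probe sets. The alternatives were other pseudocounts, filters, normalizations, array weights, the replicate number as a block, fits within a pair of stages and leaving out each array. Promoters are from RefSeq (GRCm38.p6), and none is shown for Nlrp14.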

Additional observations from a re-analysis of the deposited data

Results flagged for a closer look

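Of 65 groups of 4 arrays checked over the NLR family probe sets, 7 held an array far from the other 3, and chance gives about 1 in 20. Among the members this was Nlrp4f on 8-cell replicate 3, at 92.4 units where the other arrays read 152.7 to 154.4. Nlrp12 read 120.4 on 8-cell replicate 1 (others 230.8 to 248.2). Nlrp4b read 998.1 on 2-cell replicate 1 (others 571.7 to 581.0) and 51.7 on blastocyst replicate 1 (others 3.5 to 9.7). Nlrp9a read 6151.5 on oocyte replicate 1 (others 6838.2 to 6934.1), and Nlrp9b read 2435.9 on oocyte replicate 3 (others 1806.2 to 1894.3). Nod1 read 211.4 on 1-cell replicate 3 (others 32.2 to 57.8).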

How the results depend on the processing

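Of 246 recomputed results of the members other than those leaving out an array, 233 kept their direction and their side of the threshold. With quantile normalization the 2-cell stage against the 1-cell stage gave -0.76 for Nlrp4e (adjusted p = 0.0593), -0.89 for Nlrp9c (0.0650), -0.85 for Nlrp14 (0.0551) and, with its sign turned, 0.19 for Nlrp4f (0.769). Sizes of late changes move with the pseudocount, as given with each gene; at the 8-cell stage against the 2-cell stage Nlrp4f gave -6.56 with 5 and -5.94 with 80. At the 2-cell stage against the 1-cell stage a pseudocount of 5 gave -1.13 (0.0852) for Nlrp4e. The 1-cell stage against the oocyte was called for Nlrp4e with a pseudocount of 80 (0.73, 0.0414) and within both stages alone (0.75, 0.00844). For Nlrp9c the 2-cell stage against the oocyte was called with a pseudocount of 80 (-0.91, 0.00892), equal medians (-1.14, 0.0241), array weights (-0.98, 0.0182), both stages alone (-0.93, 0.0343) and the other probe set (-1.06, 0.00125), which was also called for the blastocyst against the 8-cell stage (-0.69, 0.0475). Leaving out 1 array at a time, 184 of 192 kept call and direction. The log2 changes then ranged from -1.38 to -0.83 for Nlrp4e at the 2-cell stage against the 1-cell stage. For the blastocyst against the 8-cell stage they ranged from -0.20 to 0.29 for Nlrp4e, where 3 of the values turned sign (-0.20, -0.08 and -0.02), from 0.31 to 1.11 for Nlrp4f, and from -1.31 to -0.66 for Nlrp9c. For Nlrp9c at the 2-cell stage against the oocyte they ranged from -1.24 to -0.70. Of 96 recomputed pair differences 4 turned sign: Nlrp4e minus Nlrp9c at the 8-cell stage (0.33 with a pseudocount of 80, 0.0512 with quantile normalization, 0.0173 with equal medians) and Nlrp4e minus Nlrp4f at the 1-cell stage (-0.10 with quantile normalization). Leaving out arrays was not run for the pair tests. The replicate numbers did not pair the arrays: deviations of same-numbered arrays correlated at -0.062 to 0.063. The replicate number as a block changed no call of the members (for Nlrp4e at the 2-cell stage against the 1-cell stage, -1.12 with an adjusted p of 0.0124). Over all probe sets, equal medians moved the split of higher and lower calls at the 2-cell stage against the 1-cell stage to 1363 and 2100, beside 1859 and 1423, with the median change at -0.12 beside 0.07. The split was 2532 and 3148, beside 3292 and 2449, for blastocysts against oocytes, and 1305 and 2009, beside 1814 and 1474, for the 2-cell stage against the oocyte. Array weights gave 612 higher calls at the 1-cell stage against the oocyte, beside 406. The cause of these differences was not tested.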
